A study of Mus musculus with 56 samples.

Results

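The hypoxia-inducible factor (HIF) pathway was followed through the day in mouse kidney by the transcripts of 9 genes, which were taken by name from a table of 17027 genes. They were the HIF alpha subunits Hif1a and Epas1, the oxygen sensors Egln1 and Egln3, and the target genes Vegfa, Adm, Bnip3, Ankrd37 and Pfkfb3. The rule that picks them by name uses no measured value, and all 9 passed the filter on low expression. The kidneys came from 56 female C57BL/6J mice. Mice aged 7 weeks were group-housed under 12 h of light and 12 h of dark with free access to chow for 7 days. They were then fed for a further 7 days by day only (daytime-restricted feeding, DRF) or by night only (nighttime-restricted feeding, NRF, the reference), and were 9 weeks old at collection. Under each regimen 4 mice were sampled at each of 7 zeitgeber times (ZT, hours after lights on), namely ZT0, ZT4, ZT8, ZT12, ZT16, ZT20 and ZT24, which gave 14 groups. The hours at which food was given are not in the labels. The labels describe the tissue as adult female kidney and name no region of it.

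HIF is a transcription factor made of an oxygen-regulated alpha subunit, HIF-1 alpha from Hif1a or HIF-2 alpha from Epas1, and a constant beta subunit. When oxygen is plentiful, prolyl hydroxylases such as those encoded by Egln1 and Egln3 mark the alpha subunit for binding by the von Hippel-Lindau protein and destruction, and when oxygen falls the subunit persists and binds the core sequence RCGTG near its targets. The regulation is therefore largely on the protein, which was not measured here. In the kidney the inner medulla works at low oxygen even in health, and HIF-2 alpha controls erythropoietin in interstitial cells.

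Levels are given as TPM, a transcript abundance corrected for gene length and library size, on a linear scale, and differences on the log2(TPM + 1) scale. Bnip3 had the highest mean level over the 56 libraries, 284 TPM, followed by Vegfa at 221, Epas1 at 126, Egln1 at 88.0 and Hif1a at 81.8 TPM. Egln3 at 24.4, Pfkfb3 at 15.5 and Adm at 14.95 TPM were lower, and Ankrd37 was close to the filter at 1.81 TPM. Hif1a and Egln1, and likewise Pfkfb3 and Adm, were neighbours in this order whose library values overlapped widely. Depth was between 23.8 and 26.3 M recovered reads per library. A single library held between 3518 and 7579 reads of Bnip3 but only 10 to 44 reads of Ankrd37, so that the latter was measured with a much larger counting error.

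A promoter was found for 8 of the 9 genes in the RefSeq table of the GRCm38.p6 assembly, and none for Epas1. Stretches of 100 bases upstream of the start site are shown for the target Bnip3, for the sensor Egln3 and for the target Adm, because these genes had, in turn, a called peak at nearly the same time of day under both regimens, called peaks −9.98 h apart, and a rhythm called under DRF but not under NRF. Capitals mark ACGTG and GCGTG, the spellings of the HIF core, on either strand, and CACGTG, the E-box bound by clock factors, holds ACGTG on both strands. All are written 5′ to 3′ on the gene's strand.
Bnip3, chr7:138909537-138909636, minus strand: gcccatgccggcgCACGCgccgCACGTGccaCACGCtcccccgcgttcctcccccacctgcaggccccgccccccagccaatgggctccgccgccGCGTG
Egln3, chr12:54204025-54204124, minus strand: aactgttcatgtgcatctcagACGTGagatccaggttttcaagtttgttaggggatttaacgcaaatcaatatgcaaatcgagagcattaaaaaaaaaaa
Adm, chr7:110627537-110627636, plus strand: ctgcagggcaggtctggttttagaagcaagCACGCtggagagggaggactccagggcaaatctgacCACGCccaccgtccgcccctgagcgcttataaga
In the full window, from 250 bases before the start to 50 after it, Bnip3 held 2 ACGTG matches, both in a single CACGTG, and 3 GCGTG matches. Egln3 held 1 ACGTG and Adm 2 GCGTG. Of all 32851 promoters of this length, 43.77% held ACGTG or GCGTG and 7.15% held CACGTG, so these letters are common and a match is no evidence of binding.

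To place the genes on the genome, the GRCm38 annotation was used, and the reads of a gene are those of all its exons together. Epas1 lies on chromosome 17 from 86753700 to 86833410 and Hif1a on chromosome 12 from 73901375 to 73947530, both on the plus strand. Bnip3, on chromosome 7 from 138890836 to 138909519, shares 504 of its exon bases, 22.2%, with the antisense gene Gm45507. Ankrd37, on chromosome 8 from 45996902 to 46005707, shares 349 exon bases with Lrp2bp and 57 with Ufsp2, both on the opposite strand, and Hif1a shares 330 with the antisense gene Gm15283 and 148 with Gm49321, a protein-coding gene model on its own strand. The counting was not stated to use strand, so reads of the bases shared with opposite-strand genes cannot be told apart, and those shared with Gm49321 could not be told apart by strand in any case.

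**Figure D1:**
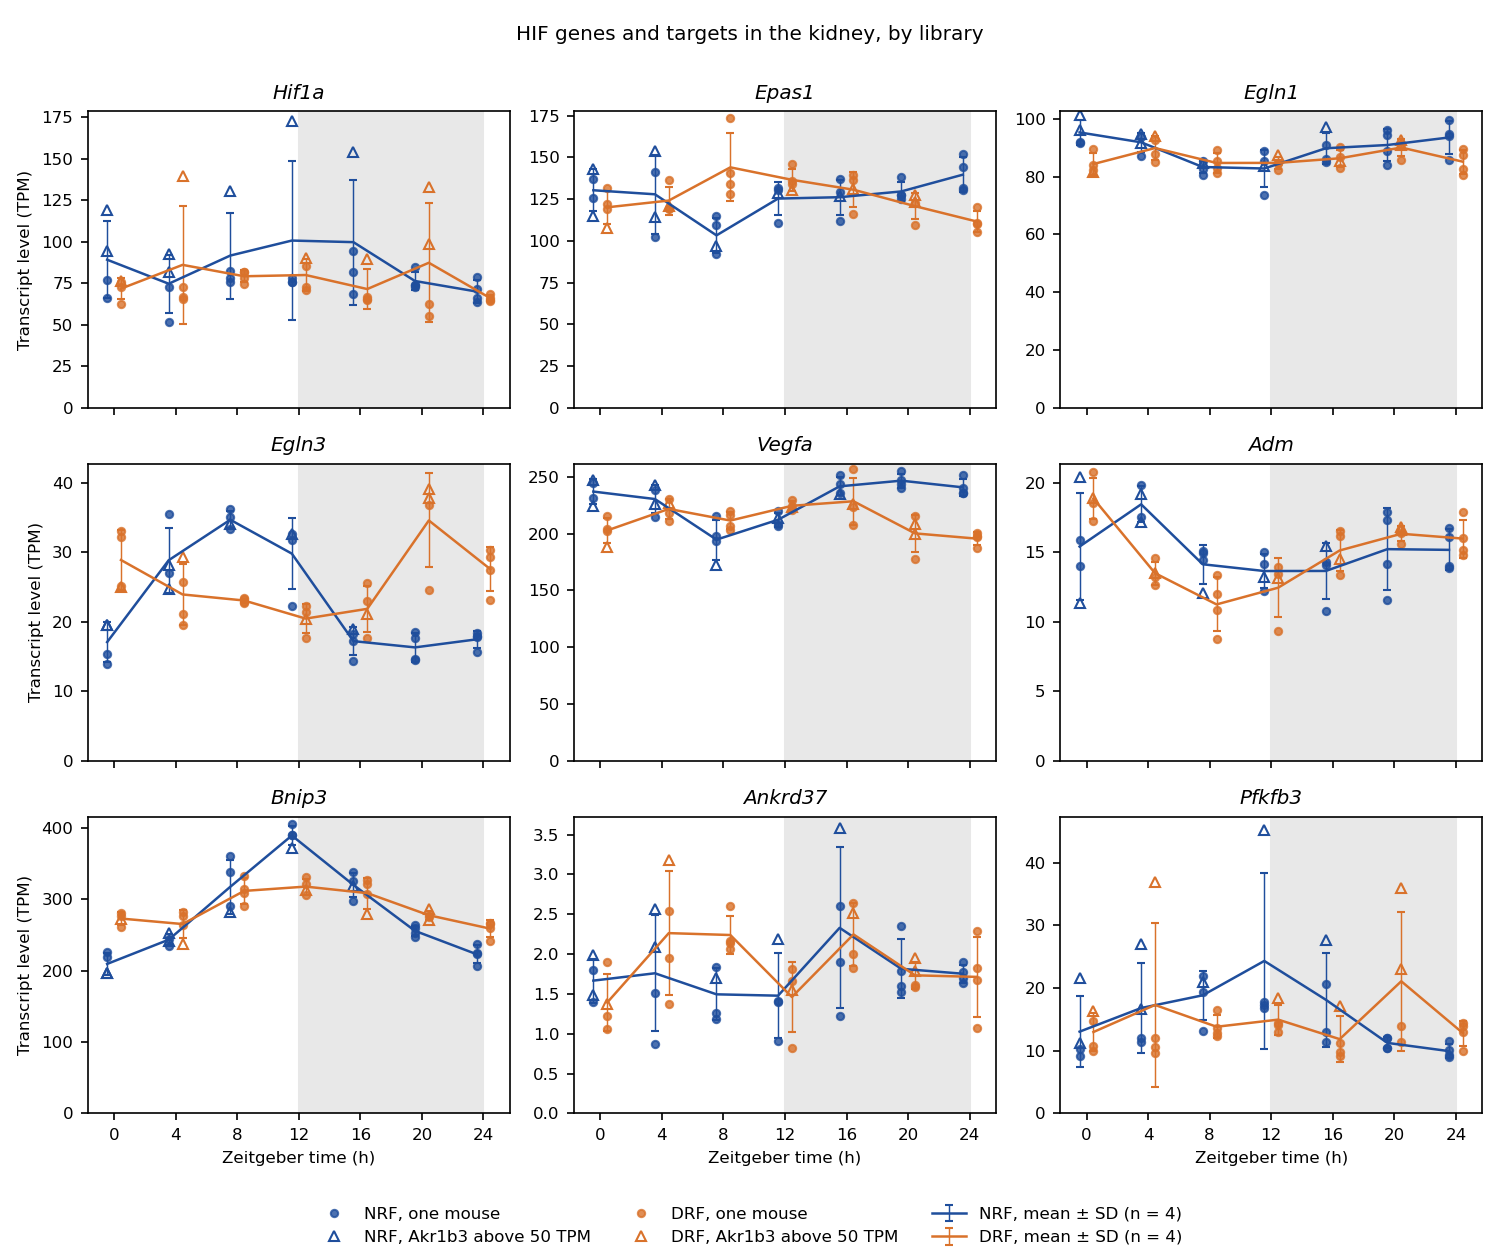
Transcript level (TPM, vertical axis from 0) of each of the 9 genes against zeitgeber time (h), NRF in blue and DRF in orange, with the dark phase shaded. Each point is 1 mouse, lines join the group means, bars are SD (n = 4), and open triangles are the 13 libraries with Akr1b3 above 50 TPM; Bnip3 rose to ZT12 under both regimens, Egln3 was highest at ZT8 under NRF and at ZT20 under DRF, and the highest library of the Hif1a and Pfkfb3 panels is a triangle in both.

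Before the rhythms were compared, the libraries were checked for differences in tissue. Akr1b3, aldose reductase, which makes the osmolyte sorbitol in the inner medulla, was between 75.4 and 380 TPM in 13 libraries and between 9.32 and 31.5 TPM in the other 43. The 13 libraries comprised 6 of DRF and 7 of NRF and came from 10 of the 14 groups. Slc14a2, the other inner medulla marker examined, overlapped widely between the sets. It was between 49.4 and 314 TPM in the 13 (median 150) and between 0.119 and 220 TPM in the others (median 68.0). The collecting duct water channel Aqp2 had a median of 656 TPM in them and 318 in the others, the endothelial gene Pecam1 53.3 and 40.5 TPM, and the proximal tubule phosphate transporter Slc34a1 3100 and 3390 TPM. Summed proximal tubule markers were high in every library, between 4917 and 11031 TPM. Adipose markers summed to 0.408 to 2730 TPM under NRF and to 0.232 to 534 TPM under DRF, and Adipoq was above 50 TPM in 9 libraries, 6 of them NRF. Haemoglobin and other red blood cell genes summed to 234 to 3042 TPM under NRF and to 570 to 2768 TPM under DRF, and liver markers to 76.5 to 467 and to 76.5 to 286 TPM. The haemoglobin genes Hba-a1 and Hbb-bs and the proximal tubule marker Slc5a2 could not be recovered and are missing from these sums. Immune cell genes were low, at most 36.2 TPM in sum. Of the adrenal markers, 3 of 5 were in the table and summed to at most 6.58 TPM with Cyp11a1 and Cyp21a1 below 1 TPM, and of the skeletal muscle markers only Acta1 was in the table, also below 1 TPM.

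The genes that were higher in these libraries in every such group were Hif1a and the glycolytic activator Pfkfb3. Hif1a ranged from 76.2 to 172 TPM with a median of 98.6 in the 13 libraries, and from 51.7 to 94.5 TPM with a median of 72.8 in the other 43. Pfkfb3 ranged from 11.2 to 45.3 TPM with a median of 21.5 against 8.97 to 21.9 TPM with a median of 12.1. Within groups, the libraries high in Akr1b3 had the higher mean in 10 of 10 groups for both genes. Ankrd37 was higher in 9 of 10 groups and Egln1 in 8, whereas Adm was higher in 6, Epas1 and Egln3 in 5, Vegfa in 4 and Bnip3 in 2. The part of dissection or tissue make-up in these values was not tested, and in whole tissue more cells of a type and more RNA per cell cannot be told apart. For the 9 members, calls that were lost or gained without the 13 libraries are given beside the gene concerned. For the further pathway genes only fits to all libraries are given.

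**Figure D2:**
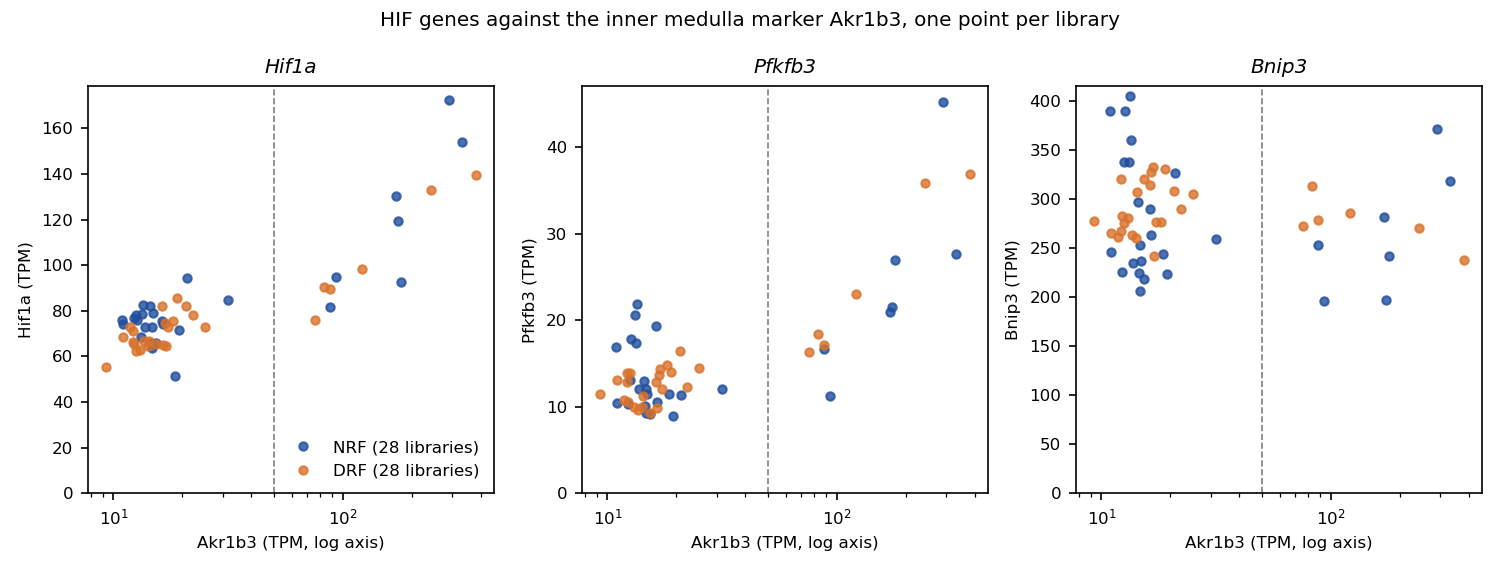
Levels of Hif1a, Pfkfb3 and Bnip3 (TPM, vertical axes from 0) against Akr1b3 (TPM, log axis) in 28 NRF (blue) and 28 DRF (orange) libraries, 1 point per library, with the dashed line at 50 TPM. Hif1a had a median of 98.6 TPM to the right of the line and 72.8 to its left and Pfkfb3 21.5 and 12.1 TPM, whereas Bnip3 had 272 and 278 TPM.

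To determine whether the genes cycled, a 24-h cosine was fitted to the 28 libraries of each regimen with limma, and p-values were adjusted by the Benjamini-Hochberg method over the 13492 genes with a mean of at least 1 TPM. A gene is called when its adjusted p is below 0.05, and the amplitude is the distance from the fitted mean to the fitted peak. Under NRF 6 of the 9 genes were called, namely Egln3, Pfkfb3, Bnip3, Vegfa, Epas1 and Egln1, beside 54% of all genes. Under DRF 5 were called, namely Adm, Egln3, Bnip3, Epas1 and Vegfa, beside 36% of all genes. The 4 genes called under both regimens compare with 25.3% of all genes. Among all genes called under both, the median absolute difference in peak time was 5.51 h. The median amplitude of the 9 genes was 0.15 under NRF and 0.09 under DRF, and 7 of them had the lower value under DRF. Over all genes the medians were 0.13 and 0.11, and 62.7% were lower under DRF. The test of the interaction between rhythm and regimen called 7 of the 9, all but Hif1a and Ankrd37, beside 45.3% of all genes.

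**Figure D3:**
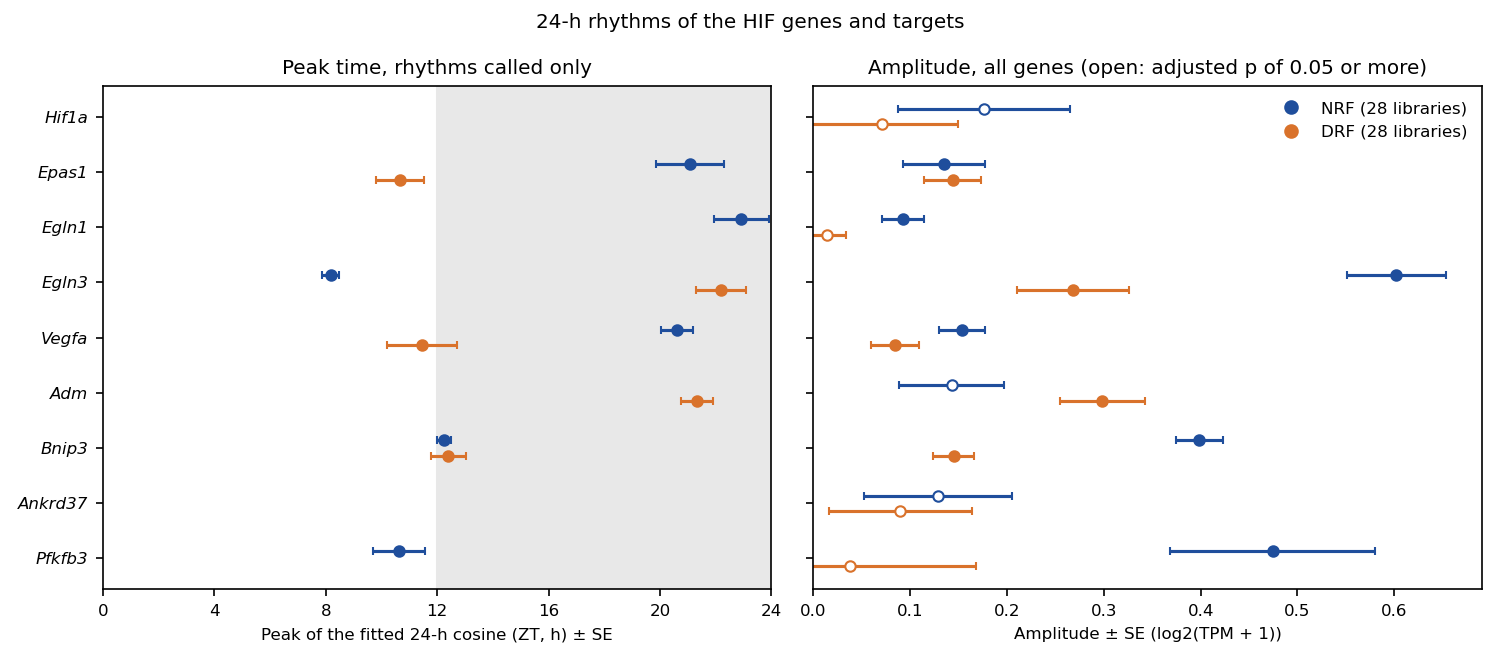
Left, fitted peak time (ZT, h) ± SE of the 24-h rhythms called under NRF (blue) and DRF (orange), with the dark phase shaded; right, amplitude ± SE on the log2(TPM + 1) scale of all 9 genes, open where the adjusted p was 0.05 or more, from 28 libraries per regimen. Bnip3 peaked at ZT12.2 and ZT12.4, whereas the peaks of Egln3, Vegfa and Epas1 under the 2 regimens differ by between −9.15 and −10.4 h.

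DRF and NRF were then compared at the same time of day, and also at the same point of the feeding cycle by setting each DRF group against the NRF group 12 h away, with limma contrasts over all 56 libraries. At the same time of day 15 of 63 differences were called, 6 higher and 9 lower under DRF. At ZT0 4 members were called, 2 higher and 2 lower, beside 17.3% of all genes (8.71% higher and 8.57% lower). Only Adm was called at ZT4, where it was lower, beside 27.9% of all genes (10.1% higher and 17.8% lower). The 2 called at ZT8, 1 in each direction, compare with 15.7% of all genes (6.02% higher and 9.65% lower). Both members called at ZT12 were lower, beside 18.9% of all genes (7.26% higher and 11.7% lower). None of the 9 was called at ZT16 by limma or voom, with 1 at an unadjusted p under 0.05, beside 4.97% of all genes (2.21% higher and 2.76% lower). The 2 called at ZT20, 1 in each direction, compare with 17% of all genes (10.7% higher and 6.33% lower). At ZT24 there were 4, 2 higher and 2 lower, beside 14.8% of all genes (5.33% higher and 9.51% lower).

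In the feeding-cycle alignment, in which ZT0 and ZT24 libraries were averaged, 13 of 54 differences were called, 6 higher and 7 lower under DRF. For DRF ZT0 against NRF ZT12 1 member was called higher and 1 lower, beside 10.2% of all genes (5.58% higher and 4.62% lower). The same held for DRF ZT4 against NRF ZT16, beside 17.7% of all genes (13.8% higher and 3.94% lower). For DRF ZT8 against NRF ZT20 2 were higher and 2 lower, beside 14.6% of all genes (9.09% higher and 5.52% lower). Another 1 higher and 1 lower were called for DRF ZT12 against NRF ZT0, beside 17% of all genes (4.18% higher and 12.9% lower), and for DRF ZT16 against NRF ZT4, beside 33.2% of all genes (6.17% higher and 27% lower). For DRF ZT20 against NRF ZT8 1 was called lower, beside 12.4% of all genes (4.14% higher and 8.26% lower). Hif1a, Ankrd37 and Pfkfb3 were called in neither alignment in these contrasts, though some alternative fits called them, as given below.

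**Figure D4:**
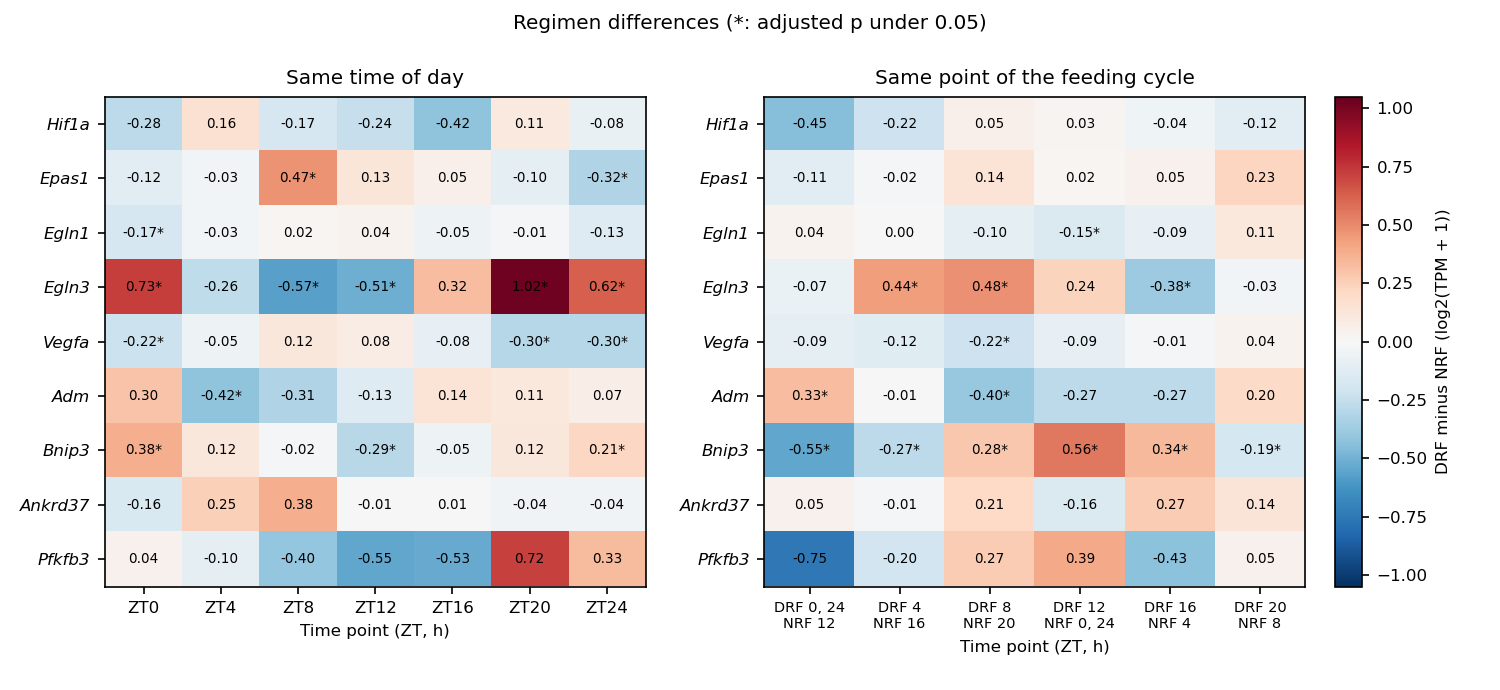
DRF minus NRF on the log2(TPM + 1) scale for each gene (rows), left at the same time of day and right at the same point of the feeding cycle, where ZT0 and ZT24 were averaged; red is higher and blue lower under DRF, and asterisks mark an adjusted p below 0.05. Egln3 has the largest value, 1.02 at ZT20, and Bnip3 is marked at all 6 points of the feeding cycle but at 3 of the 7 times of day.

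Among the HIF subunits, Epas1 showed a rhythm whose peak was moved by the feeding regimen. At ZT8 its level was 96.8, 109.7, 92.1 and 115 TPM in the 4 NRF libraries and 174, 140.4, 134 and 128 TPM in the 4 DRF libraries. Every DRF library lay above every NRF library, and the DRF mean of 144 ± 20.3 TPM (SD, n = 4) was 1.39 times the NRF mean of 103 ± 10.6 TPM (adjusted p = 3.13e-04). The order was the opposite at ZT24, when the values were 131, 144, 132 and 152 TPM under NRF and 105, 120.4, 110.0 and 111 TPM under DRF. Again the groups did not overlap, and the difference, −0.32 ± 0.09 (SE) on the log2 scale, had an adjusted p of 0.0151. The fitted peak was at ZT21.1 ± 1.21 under NRF (amplitude 0.14 ± 0.04, adjusted p = 0.0262) and at ZT10.7 ± 0.86 under DRF (0.14 ± 0.03, adjusted p = 0.00168). The peaks were thus −10.4 ± 1.48 h apart, and the interaction had an adjusted p of 9.87e-05. The NRF rhythm leaned on the low values of ZT8. It lost its call without replicate 1 or replicate 3 of that time point (adjusted p = 0.0696 and 0.0785), and its adjusted p was 0.516 without ZT8 altogether. The NRF rhythm was also lost without replicate number 1 or 2 of every group (0.0876 and 0.163) and without ZT24 (0.0992). The difference at ZT24 likewise lost its call without DRF replicate 1 (adjusted p = 0.0562) or without the unnumbered NRF library (0.0661).

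Hif1a, by contrast, was not called under either regimen when all libraries were used without a covariate. Its amplitude was 0.18 ± 0.09 under NRF (adjusted p = 0.218) and 0.07 ± 0.08 under DRF (adjusted p = 0.731). In some groups that held a library high in Akr1b3 the spread was large. At ZT12 under NRF the 4 values were 172, 76.0, 76.1 and 78.4 TPM, and at ZT20 under DRF they were 62.5, 55.5, 98.6 and 133 TPM. In both groups the high values were those of the libraries with Akr1b3 above 50 TPM. Without the 13 libraries Hif1a had a called rhythm under DRF, with an amplitude of 0.16 ± 0.03, a peak at ZT8.31 and an adjusted p of 0.00354. Under NRF the amplitude was then 0.13 ± 0.05 with an adjusted p of 0.0636. The interaction was called (adjusted p = 0.0149), with a fitted peak difference of −6.43 ± 1.51 h. When log2 Akr1b3 was instead a covariate, the NRF rhythm was called (amplitude 0.19 ± 0.04, adjusted p = 0.00150) and the DRF rhythm was not (0.0561). The interaction was called there too (adjusted p = 0.00296), with a fitted peak difference of −6.48 ± 1.52 h. In each of these fits the rhythm of a regimen was not called, so the differences in peak time carry no information. At ZT20 the difference between the regimens turned from 0.11 with all libraries to −0.37 ± 0.11 without the 13 (adjusted p = 0.0220), and DRF at ZT20 was then also lower than NRF at ZT8 by −0.41 ± 0.11 (adjusted p = 0.0116). The covariate fit called the latter too (adjusted p = 0.0391), and also Hif1a at ZT4 (0.0330), at ZT16 (0.0248) and for DRF ZT0 against NRF ZT12 (0.00531). These fits were added after the data had been seen. Without the 13 libraries the group means ran from 62.2 TPM at ZT4 to 81.8 TPM at ZT16 under NRF, and from 59.0 TPM at ZT20 to 79.3 TPM at ZT8 under DRF, with as few as 2 libraries in a group.

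Egln1 and Egln3 encode the prolyl hydroxylases PHD2 and PHD3, and Egln3 is itself a well-known HIF target. Egln3 had the largest amplitude of the 9 genes under NRF, 0.60 ± 0.05, with a peak at ZT8.17 ± 0.31 (adjusted p = 1.56e-09). Under DRF the amplitude was 0.27 ± 0.06 with a peak at ZT22.2 ± 0.89 (adjusted p = 0.00267). The peak was thus moved by −9.98 ± 0.94 h, and the interaction had an adjusted p of 2.87e-11.

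In the NRF libraries, Egln3 was 19.5, 13.9, 15.4 and 19.5 TPM at ZT0, 35.6, 27.0, 24.7 and 28.3 TPM at ZT4, and 34.1, 36.3, 33.4 and 35.1 TPM at ZT8. It was 32.7, 31.8, 32.6 and 22.2 TPM at ZT12 and 18.3, 18.9, 14.4 and 17.3 TPM at ZT16. It was 14.6, 14.5, 18.5 and 17.7 TPM at ZT20 and 18.4, 18.03, 17.9 and 15.6 TPM at ZT24. The transcript was therefore high during the light phase, and every library of ZT16, ZT20, ZT0 and ZT24 lay below every library of ZT4, ZT8 and ZT12. In the DRF libraries, Egln3 was 25.1, 33.2, 32.2 and 25.2 TPM at ZT0, 19.6, 21.2, 25.7 and 29.4 TPM at ZT4, and 22.8, 23.4, 22.9 and 23.2 TPM at ZT8. It was 21.5, 20.5, 22.4 and 17.6 TPM at ZT12 and 21.2, 25.6, 23.0 and 17.7 TPM at ZT16. It was 36.9, 24.6, 39.2 and 37.8 TPM at ZT20 and 23.2, 27.4, 29.4 and 30.4 TPM at ZT24. Under DRF the high values fell in the late dark phase, and 1 library of ZT20 lay far below the other 3.

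Between the regimens Egln3 was called at 5 of the 7 time points. It was higher under DRF at ZT0 by 0.73 ± 0.14 (ratio of means 1.69, adjusted p = 1.10e-04), at ZT20 by 1.02 ± 0.14 (ratio 2.12, adjusted p = 3.69e-07) and at ZT24 by 0.62 ± 0.14 (adjusted p = 9.48e-04). It was lower at ZT8 by −0.57 ± 0.14 (adjusted p = 0.00247) and at ZT12 by −0.51 ± 0.14 (adjusted p = 0.00536), although at ZT12 the libraries of the 2 regimens overlapped and the call was lost without the 9 libraries high in Adipoq (adjusted p = 0.0976). At the same point of the feeding cycle the levels were closer at the peak. The DRF mean of ZT20 was 34.6 ± 6.77 TPM and the NRF mean of ZT8 was 34.7 ± 1.25 TPM (n = 4 each), and the difference was −0.03 ± 0.14. Away from the peak, Egln3 was 0.44 ± 0.14 higher in DRF at ZT4 than in NRF at ZT16 (adjusted p = 0.0165) and 0.48 ± 0.14 higher at ZT8 than in NRF at ZT20 (adjusted p = 0.0108). At the DRF minimum, ZT12, it differed from NRF at ZT0 and ZT24 by 0.24 ± 0.12 (adjusted p = 0.174). The ZT8 difference was lost without replicate 1 or replicate 2 of every group (adjusted p = 0.0790 and 0.0739). The ZT4 difference was lost without DRF ZT4 replicate 3 or 4 (adjusted p = 0.0589 and 0.0831) or NRF ZT16 replicate 3 (0.0895), and its adjusted p was 0.0757 without the 13 libraries high in Akr1b3. Without those 13, Egln3 was also called at ZT4 at the same time of day, −0.48 ± 0.17 (adjusted p = 0.0449).

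Egln1 was the steadiest of the 9, between 73.5 and 101 TPM in all 56 libraries. Under NRF it fell from 95.2 ± 4.47 TPM at ZT0 to 82.8 ± 6.55 TPM at ZT12 (n = 4 each), with an amplitude of 0.09 ± 0.02, a peak at ZT22.9 ± 0.98 and an adjusted p of 0.00238. No rhythm was called under DRF (amplitude 0.01 ± 0.02, adjusted p = 0.815). At ZT0 the values were 101, 92.1, 91.6 and 96.2 TPM under NRF and 81.4, 84.1, 89.7 and 82.1 TPM under DRF. These did not overlap, with a difference of −0.17 ± 0.05 (adjusted p = 0.0138), which was lost without DRF replicate 1 (adjusted p = 0.0524) or NRF replicate 1 (0.0742) and had an adjusted p of 0.384 without the 13 libraries high in Akr1b3. The interaction was only just called, at an adjusted p of 0.0431, and stayed so in 37 of the 56 fits that each left out 1 library, with a highest adjusted p of 0.106 without NRF ZT12 replicate 4. Its adjusted p was 0.102 without the 13 libraries. The interaction was also lost without replicate number 1, 2 or 4 of every group (adjusted p = 0.135, 0.145 and 0.102). Leaving out ZT0, ZT8, ZT12 or ZT24 likewise ended the call (0.257, 0.115, 0.138 and 0.130).

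Of the target genes, Bnip3 encodes a mitochondrial protein that promotes mitophagy and is induced by HIF-1. Its fitted peak was at the end of the light phase under both regimens and the amplitude was smaller under DRF. The peak was at ZT12.2 ± 0.27 under NRF (amplitude 0.40 ± 0.02, adjusted p = 2.96e-12) and at ZT12.4 ± 0.63 under DRF (0.14 ± 0.02, adjusted p = 3.69e-05). The peaks were 0.16 ± 0.68 h apart, and the interaction, here in amplitude, had an adjusted p of 4.13e-08.

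At ZT0 Bnip3 was 197, 226, 219 and 196 TPM under NRF and 272, 261, 281 and 277 TPM under DRF. At ZT12 it was 372, 389.9, 389.9 and 405 TPM under NRF and 305, 313, 331 and 321 TPM under DRF. At ZT24 it was 225, 206, 224 and 237 TPM under NRF and 242, 260.1, 267 and 265 TPM under DRF. The regimens did not overlap at any of these 3 time points, and DRF was the higher at ZT0 and ZT24 and the lower at ZT12. The differences were 0.38 ± 0.06 at ZT0 (adjusted p = 8.11e-06), −0.29 ± 0.06 at ZT12 (adjusted p = 4.04e-04, but 0.0536 on the deposited scores) and 0.21 ± 0.06 at ZT24 (adjusted p = 0.0116), the last of which was lost without NRF replicate 2 (adjusted p = 0.0659). A difference at ZT4, not called with all libraries, was called without the 13 libraries high in Akr1b3 (0.20 ± 0.07, adjusted p = 0.0491) or without DRF replicate 4 (0.0327). The group means spanned 209 to 389 TPM under NRF, a ratio of 1.86, and 259 to 318 TPM under DRF, a ratio of 1.23. When the regimens were aligned by the feeding cycle, Bnip3 was called at all 6 points. The DRF libraries of ZT0 and ZT24, with a mean of 266 ± 12.2 TPM (n = 8), lay below the NRF libraries of ZT12 at 389 ± 13.6 TPM (n = 4), a difference of −0.55 ± 0.05 (adjusted p = 3.76e-11). Conversely, DRF at ZT12, 318 ± 11.1 TPM, lay above NRF at ZT0 and ZT24, 216 ± 14.8 TPM (n = 8), by 0.56 ± 0.05 (adjusted p = 4.23e-11). The smallest of the 6, −0.19 ± 0.06 for DRF ZT20 against NRF ZT8 (adjusted p = 0.0340), was called in 51 of 56 fits without 1 library (highest adjusted p 0.236, without NRF ZT8 replicate 4) and was not called after rescaling by median ratios (0.164).

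Vegfa encodes the vascular endothelial growth factor that kidney podocytes and tubules supply to neighbouring capillaries. Under NRF it was lowest at ZT8, with 173, 198, 194 and 215 TPM, and highest at ZT20, with 244, 255, 248 and 240.4 TPM. Under DRF it was 219.7, 217, 207 and 203 TPM at ZT8 and 216, 178, 199.5 and 208 TPM at ZT20. At ZT20 all DRF libraries lay below all NRF libraries, and the difference was −0.30 ± 0.06 (ratio of NRF to DRF 1.23, adjusted p = 9.95e-05). It was also lower under DRF at ZT24 (−0.30 ± 0.06, adjusted p = 1.45e-04) and at ZT0 (−0.22 ± 0.06, adjusted p = 0.00318), in both cases with no overlap. The NRF rhythm peaked at ZT20.6 ± 0.57 (amplitude 0.15 ± 0.02, adjusted p = 1.72e-05) and the DRF rhythm at ZT11.4 ± 1.25 (0.08 ± 0.02, adjusted p = 0.0250), −9.15 ± 1.38 h apart (adjusted p of the interaction, 1.87e-06). Without the 13 libraries high in Akr1b3, the DRF rhythm (adjusted p = 0.0968) and the difference at ZT0 (0.0829) were not called. The DRF rhythm was also lost without replicate number 1, 2 or 3 (adjusted p = 0.208, 0.0807 and 0.0740) and without ZT0, ZT12 or ZT24 (0.0653, 0.109 and 0.154), and the peak difference rests on it.

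Vegfa was also the only member called in the comparison of the mean level over the day, in which 9.84% of all genes were called. It was 0.08 ± 0.02 lower under DRF (adjusted p = 0.00835), and 6.69% of all genes were called lower and 3.16% higher. The call was lost after rescaling by median ratios (−0.06 ± 0.02, adjusted p = 0.0714) and with voom (−0.06, adjusted p = 0.105).

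Adm encodes adrenomedullin, a vasodilator peptide and a HIF-1 target. It was the only member called under DRF and not under NRF, and the regimens differed in the interaction test (adjusted p = 0.00185). Under DRF it was 18.9, 20.8, 18.6 and 17.3 TPM at ZT0, 12.6, 13.2, 14.6 and 13.5 TPM at ZT4, and 12.0, 10.8, 13.4 and 8.79 TPM at ZT8. Every library of ZT0 lay above every library of ZT4 and ZT8. The amplitude was 0.30 ± 0.04 with a peak at ZT21.3 ± 0.57 (adjusted p = 3.24e-05). Under NRF the amplitude was 0.14 ± 0.05 with a fitted peak at ZT2.80 and an adjusted p of 0.0743, which became 0.0205 without NRF ZT0 replicate 4 and 0.0336 without ZT0. At ZT4, NRF libraries held 19.9, 17.6, 17.2 and 19.2 TPM, all above the 4 DRF libraries, and the difference was −0.42 ± 0.13 (adjusted p = 0.00939). This call was lost without replicate number 1 of every group (−0.36 ± 0.14, adjusted p = 0.0793). At ZT8 a difference, not called with all libraries, was called without the 13 libraries high in Akr1b3 (−0.38 ± 0.13, adjusted p = 0.0419) or without DRF replicate 3 (0.0434). In the feeding-cycle alignment Adm was lower in DRF at ZT8 than in NRF at ZT20 by −0.40 ± 0.13 (adjusted p = 0.0240; 0.0603 to 0.137 without any of DRF ZT8 replicates 2 and 4 and NRF ZT20 replicates 1 and 2). It was higher in DRF at ZT0 and ZT24 than in NRF at ZT12 by 0.33 ± 0.11 (adjusted p = 0.0442), which was called in 47 of 56 fits without 1 library (highest adjusted p 0.173, without NRF ZT12 replicate 2) and had an adjusted p of 0.0975 without the 13 libraries high in Akr1b3. The latter call was also lost without replicate number 1, 2, 3 or 4 of every group (0.102, 0.323, 0.0630 and 0.0548) and with no filter (0.0533). The call for DRF ZT8 against NRF ZT20 was lost without replicate number 1, 2 or 4 (0.129, 0.237 and 0.131).

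Pfkfb3 encodes the enzyme that makes fructose 2,6-bisphosphate, the main activator of glycolysis. Under NRF its amplitude was 0.47 ± 0.11 with a peak at ZT10.6 ± 0.94 (adjusted p = 0.00176), and under DRF it was 0.04 ± 0.13 (adjusted p = 0.969). At ZT12 under NRF the values were 45.3, 16.9, 17.8 and 17.4 TPM, and at ZT24 they were 10.1, 9.26, 8.97 and 11.5 TPM. The 45.3 TPM belonged to a library high in Akr1b3, yet the other 3 libraries of ZT12 still lay above all 4 of ZT24. Without the 13 libraries the NRF amplitude was 0.41 ± 0.06 (adjusted p = 3.66e-05), and the group means spanned 9.74 TPM (ZT0) to 18.1 TPM (ZT8). The interaction, with an adjusted p of 0.0336, was lost without NRF ZT12 replicate 1 (0.0780), DRF ZT20 replicate 3 (0.0502) or the 9 libraries high in Adipoq (0.0647). It was also lost without replicate number 1, 3 or 4 of every group (adjusted p = 0.198, 0.147 and 0.0522). Leaving out ZT8, ZT12, ZT20 or ZT24 likewise ended the call (0.0658, 0.0946, 0.1097 and 0.1001). Without the 13 libraries high in Akr1b3 the interaction had an adjusted p of 0.00386. Among the differences between the regimens, none was called for Pfkfb3 before any alternative was applied. For DRF ZT0 against NRF ZT12 (−0.75, adjusted p = 0.0753) the adjusted p was 0.0429 after rescaling by median ratios, 0.0440 on the deposited scores, 0.0405 with voom, 0.0240 without the 13 libraries and 0.00349 with the covariate, and it was 0.0378 without DRF ZT4 replicate 4. For DRF ZT12 against NRF ZT0 it was 0.0325 without the 13 libraries and 0.0449 with the covariate, which also called ZT12 at the same time of day (0.0150). At ZT20 the difference was called without DRF replicate 2 (0.0366).

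Ankrd37, a small ankyrin-repeat gene induced by HIF-1, was called in no 24-h test (adjusted p = 0.336 under NRF and 0.577 under DRF). At ZT8 its values were 1.70, 1.18, 1.26 and 1.84 TPM under NRF and 2.13, 2.06, 2.17 and 2.60 TPM under DRF, which did not overlap, but the difference of 0.38 ± 0.18 had an adjusted p of 0.145. With log2 Akr1b3 as a covariate this difference was called (0.43 ± 0.15, adjusted p = 0.0389). A 12-h component was sought in addition to the 24-h cosine. Under DRF it was called for Ankrd37 (amplitude 0.21 ± 0.06, adjusted p = 0.0295) and Egln3 (0.18 ± 0.06, adjusted p = 0.0465), beside 25.1% of all genes. Without 1 library the Ankrd37 call was kept in 52 of 56 fits (highest adjusted p 0.0822, without DRF ZT12 replicate 4) and the Egln3 call in 38 of 56 (highest 0.120, without DRF ZT20 replicate 3). The adjusted p was 0.190 for Ankrd37 and 0.172 for Egln3 without the 13 libraries high in Akr1b3, and Pfkfb3 was then called (0.0330). Vegfa, at an adjusted p of 0.0522, was called after rescaling by median ratios (0.00301), on the deposited scores (0.0236) and with voom (0.00619). Under NRF limma and voom called 0 of the 9 genes, with 1 gene at an unadjusted p under 0.05, beside 0.652% of all genes called.

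For DRF ZT16 against NRF ZT4 the median of all genes was itself shifted by −0.10, and Egln3, lower there by −0.38 ± 0.14 (adjusted p = 0.0240), was not called after rescaling by median ratios (0.0884) or without DRF ZT16 replicate 4 (0.126) or NRF ZT4 replicate 1 (0.133). In the feeding-cycle alignment Vegfa was lower in DRF at ZT8 than in NRF at ZT20 by −0.22 ± 0.06 (adjusted p = 0.00416), and Egln1 lower in DRF at ZT12 than in NRF at ZT0 and ZT24 by −0.15 ± 0.04 (adjusted p = 0.0122), a call lost after rescaling by median ratios (0.117) without DRF ZT12 replicate 4 (0.0574) and without the 13 libraries high in Akr1b3 (0.0845).

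To compare the start and the end of the sampled day, ZT24 was set against ZT0. Between them limma and voom called 0 of the 9 genes under either regimen, and no member had an unadjusted p under 0.05. Of all genes 0.734% were called under NRF (0.311% higher and 0.422% lower at ZT24) and 0% under DRF.

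The members were also compared with each other over the 14 group means of log2(TPM + 1), as a description of points that share libraries. Egln3 and Vegfa ran opposite to each other (Pearson r = −0.88), as did Egln1 and Bnip3 (−0.80), whereas Hif1a and Pfkfb3 (0.71), Egln1 and Vegfa (0.68) and Epas1 and Vegfa (0.66) ran together. All libraries entered these means, also the 13 high in Akr1b3, in which Hif1a and Pfkfb3 were both higher in 10 of 10 groups. No correlation was computed without the 13, and their part in the r of 0.71 was not tested. Hif1a and Epas1, the alternative alpha subunits, had an r of −0.12. Among the other genes tested, the profile most like that of Bnip3 was Tspan4 (r = 0.96), followed by Pxmp2 and Tef, a clock output transcription factor (0.92 each). The nearest to Egln3 were Ly6g6d, Mllt6 (0.94 each) and Cldn3 (0.93), and to Vegfa Sema3e (0.93), Atp2b4 and Cdkn1c (0.92 each). For Epas1 they were Unc45b (0.91), Lrrc8c (0.89) and Cd248 (0.88), for Egln1 Zfp873 (0.95), Pla2r1 and Pi4k2a (0.93 each), and for Pfkfb3 Trip10 (0.91), Sf3b2 (0.88) and Serinc2 (0.87). For Hif1a they were Kif1b (0.88), Sec24a and Ehmt1 (0.87 each), for Adm Glcci1, Map3k21 (0.89 each) and 0610030E20Rik (0.88), and for Ankrd37 Gtf2ird2 (0.85), Nudc (0.83) and Setd3 (0.82).

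To see whether the wider pathway behaved like the members, 66 further genes in 5 lists were examined, of which 61 were tested. The erythropoietin gene Epo, at a mean of 0.30 TPM, and the inhibitory alpha subunit Hif3a, at 0.93 TPM, were among 4 below the filter, and Gapdh could not be recovered. Of the 61, 40 were called under NRF, 25 under DRF and 18 under both, and the interaction was called for 31, against the 54%, 36%, 25.3% and 45.3% of all genes given above. The median amplitude was 0.19 under NRF and 0.13 under DRF. Among the 18 called under both regimens the peak shifted by less than 4 h in 6 and by more than 8 h in 7. The median absolute shift of all genes called under both was 5.51 h, and their shares beyond these limits were not counted. The mean level over the day was called for 6, 3 higher and 3 lower under DRF, beside 9.84% of all genes (3.16% higher and 6.69% lower). A 12-h component was called for 18 under DRF and for 0 under NRF, beside 25.1% and 0.652% of all genes.

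**Figure D5:**
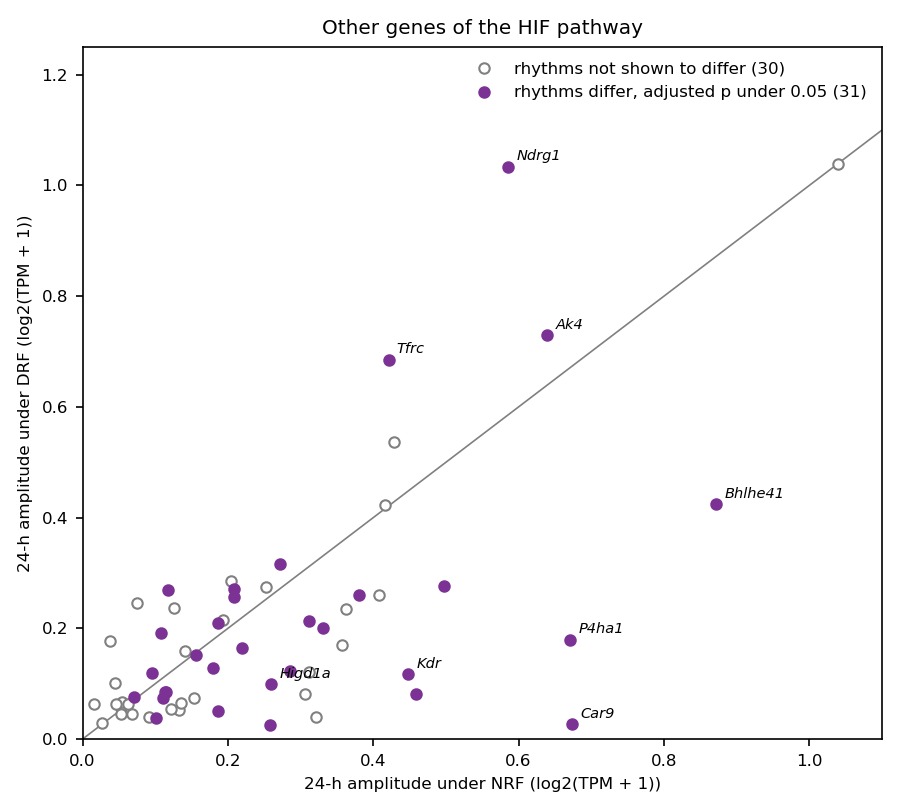
24-h amplitude under DRF against that under NRF (both on the log2(TPM + 1) scale) for 61 further HIF pathway genes, with the line of equality; filled points are the 31 genes whose rhythms differed between the regimens at an adjusted p below 0.05. Car9, P4ha1 and Kdr lie far below the line and Ndrg1 and Tfrc above it.

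The core of the oxygen-sensing machinery had small amplitudes, with medians of 0.05 under NRF and 0.09 under DRF. Of 7 tested genes for subunits and regulators, 3 were called under NRF, 1 under DRF and 3 in the interaction, beside 54%, 36% and 45.3% of all genes. The beta subunit Arnt (mean 21.97 TPM), the von Hippel-Lindau gene Vhl (30.0 TPM), the hydroxylase Egln2 (55.7 TPM) and the asparaginyl hydroxylase Hif1an (28.05 TPM) were called in none of the rhythm or interaction tests. The lowest adjusted p among them was 0.0748, for Vhl under DRF. The genes called in the interaction were the neuronal beta subunit Arnt2 (adjusted p = 0.00253), the scaffold of the ubiquitin ligase Cul2 (0.00261) and the coactivator competitor Cited2 (0.0260).

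The targets for vessels, matrix and secreted proteins were called in 12 of 14 cases under NRF, in 6 under DRF and 8 in the interaction, beside 54%, 36% and 45.3% of all genes. The collagen prolyl hydroxylase P4ha1 ranged in group means from 36.6 TPM at ZT8 to 102 TPM at ZT16 under NRF and from 45.1 TPM at ZT24 to 79.1 TPM at ZT4 under DRF. Its amplitude was 0.67 ± 0.07 under NRF and 0.18 ± 0.08, not called, under DRF (adjusted p of the interaction, 2.50e-06). The VEGF receptor Kdr, which is made by endothelial cells, had amplitudes of 0.45 ± 0.06 and 0.12 ± 0.06 (interaction 7.65e-06), and under NRF it peaked at ZT21.7, near its ligand Vegfa. The receptor Flt1 and the hydroxylase P4ha2 were called under both regimens, with peak shifts of −6.70 ± 1.23 and −8.30 ± 1.35 h.

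Of 17 glucose metabolism targets, 9 were called under NRF, 7 under DRF and 8 in the interaction, shares near the 54%, 36% and 45.3% of all genes. Pdk1, which restrains entry of pyruvate into mitochondria, peaked at ZT10.5 under NRF and ZT21.2 under DRF, a shift of 10.8 ± 1.29 h (interaction 1.39e-06). Glycogen synthase Gys1 peaked at ZT10.3 under NRF with an amplitude of 0.26 ± 0.03, close to Pfkfb3 in time, and was not called under DRF (0.03 ± 0.04). The glucose transporter Slc2a1, at ZT10.7 under DRF, was called there (amplitude 0.21 ± 0.06) and not under NRF (interaction 0.00157). Its NRF amplitude was similar, 0.19 ± 0.07, with an adjusted p of 0.0609. Tpi1 shifted by 5.23 ± 1.15 h.

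Among 10 targets for mitochondria, iron and pH, 9 were called under NRF, 5 under DRF and 6 in the interaction, beside 54%, 36% and 45.3% of all genes. The transferrin receptor Tfrc was nearly reversed. Its group means were 39.2 TPM at ZT8 and 71.2 TPM at ZT24 under NRF and 81.0 TPM at ZT8 and 30.1 TPM at ZT0 under DRF, and its peak moved by −11.2 ± 0.64 h (interaction 3.16e-15), as Epas1 did with −10.4 h. Carbonic anhydrase Car9 rose from 4.04 TPM at ZT20 to 14.97 TPM at ZT8 under NRF, with a peak at ZT8.13 next to that of Egln3, but had no called rhythm under DRF (amplitude 0.03 ± 0.07, interaction 1.21e-04). The adenylate kinase Ak4 kept a large amplitude under both regimens, 0.64 ± 0.07 and 0.73 ± 0.08, with a shift of −4.61 ± 0.60 h. Higd1a, a mitochondrial protein, shifted by −9.23 ± 1.39 h and was 0.15 higher under DRF in mean level (adjusted p = 1.55e-05). Of the other pathway genes named here, Cited2 (−0.18, adjusted p = 0.00112), Zfp395 (−0.21, 5.33e-04) and Bhlhe41 (−0.26, 0.00924) were called lower in mean level.

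Of 13 genes for chromatin, stress and transcription, 7 were called under NRF, 6 under DRF and 6 in the interaction, beside 54%, 36% and 45.3% of all genes. The stress gene Ndrg1, the most abundant of the pathway genes named here at a mean of 1787 TPM, had a larger amplitude under DRF, 1.03 ± 0.10, than under NRF, 0.59 ± 0.07, with a shift of −4.98 ± 0.60 h (interaction 2.66e-08). The histone demethylase Kdm3a shifted by −10.9 ± 1.23 h and Zfp395 by −8.17 ± 1.08 h. The clock repressor Bhlhe41 had peaks at ZT10.9 and ZT9.37, a shift of −1.53 ± 0.80 h, and amplitudes of 0.87 ± 0.08 under NRF and 0.42 ± 0.08 under DRF (interaction 5.95e-04).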

How the data were processed

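Poly(A) RNA of 56 kidneys was sequenced by the authors as paired 100-base reads on the BGISEQ-500. The submitters' processing notes name HISAT2, Bowtie2, RSEM and the GRCm38.p6 (mm10) genome, and versions are not given in the sources used here. The deposited table is called tpm, but per the values each deposited score is log2(CPM + 1) over a gene length, rescaled so that library sums lie between 999145 and 999753. Such scores are not linear TPM. The scores were therefore multiplied by annotated (or searched, as for Epas1) exon lengths and inverted to reads, which gave 16903 of 17027 genes. Whole reads came out for 90.4% of all genes, and in these 99.1% of values were whole within 0.1 reads. TPM was then recomputed from reads and length, and log2(TPM + 1) was tested with limma 3.58.1 (mean-variance trend, R 4.3.3) on 13492 genes with a mean of at least 1 TPM. The scripts were tested on simulated data.

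Rhythm fits used the 28 libraries of a regimen, and interactions and contrasts all 56, with p-values adjusted over all genes. Groups were taken from the labels. Replicates are separate mice by label, but cages are not stated, so p-values measure the spread between these libraries. The lowest ratio of replicate spread to counting noise was 2.71 over 84 pairs, so each library was counted as 1 sample. One NRF ZT24 library carries no usable number and is called unnumbered. The members and gene lists were chosen with earlier results of these data known. All 9 members are described. From each pathway list up to 4 genes with the smallest adjusted interaction p are named, and Hif3a, Arnt, Vhl, Egln2, Hif1an and Epo whatever their values; for each member the 3 genes with the highest correlation are named. Alternatives were rescaling by median ratios, the deposited scores on their own scale, a pseudocount of 0.1, filters of 5 TPM and none, voom, a replicate block, an F test over time points, and leaving out each replicate number, time point or library. Fits without the libraries above 50 TPM of Akr1b3 or Adipoq, and with Akr1b3 as a covariate, were chosen after seeing the data. Promoter sequences are from RefSeq. Proteins were not measured.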

Additional observations from a re-analysis of the deposited data

Results flagged for a closer look

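The 9 genes in 14 groups gave 126 sets of 4 values, which share libraries between genes and are not independent. In 12 of them, 1 library stood apart by Dixon's test at the 95% level, which chance alone flags in about 1 set in 20. Of these, 7 were in libraries with Akr1b3 above 50 TPM, with NRF ZT12 replicate 1 and DRF ZT4 replicate 4 counted for both Hif1a and Pfkfb3. They were Hif1a in NRF ZT12 replicate 1 (172 TPM, the others 76.0 to 78.4), NRF ZT8 replicate 1 (130.3 TPM, the others 75.7 to 82.5), DRF ZT4 replicate 4 (139 TPM, the others 65.6 to 73.0) and DRF ZT16 replicate 1 (89.4 TPM, the others 64.9 to 66.6), and Pfkfb3 in NRF ZT12 replicate 1 (45.3 TPM, the others 16.9 to 17.8), DRF ZT4 replicate 4 (36.9 TPM, the others 9.63 to 12.1) and NRF ZT0 replicate 1 (21.5 TPM, the others 9.15 to 11.2). The other 5 were not high in Akr1b3. Hif1a was 84.6 TPM in NRF ZT20 replicate 2 (the others 72.8 to 74.1). Egln3 was low in DRF ZT20 replicate 2 (24.6 TPM, the others 36.9 to 39.2) and in NRF ZT12 replicate 4 (22.2 TPM, the others 31.8 to 32.7). Epas1 was 137 TPM in DRF ZT4 replicate 3 (the others 119 to 121) and 110.4 TPM in NRF ZT12 replicate 2 (the others 128 to 132). The cause of these values was not tested.

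The effect of time of day differed between the regimens for 7 genes in the interaction test. The difference in peak time, DRF minus NRF, was −10.4 h for Epas1 (adjusted p = 9.87e-05), −9.98 h for Egln3 (2.87e-11), −9.15 h for Vegfa (1.87e-06) and 0.16 h for Bnip3 (4.13e-08), whose amplitude differed. For Adm (−5.47 h, adjusted p = 0.00185) no rhythm was called under NRF, and for Pfkfb3 (8.70 h, 0.0336) and Egln1 (−1.47 h, 0.0431) none under DRF, so these differences in peak time carry no information.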

How the results depend on the processing

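Of 49 called results of the members, 27 were called in every alternative and with each single library left out, 22 were lost in at least 1, and none changed sign while called. Conversely, 27 results that were not called passed in at least 1 alternative. The number of members called for the level over the day was 1 in the report and 0 with median-ratio rescaling, the deposited scores and voom, and between 0 and 1 without a replicate number. For the 12-h component under DRF it was 2 in the report and 1 with a minimum of 5 TPM, which drops Ankrd37, with no filter and without the libraries high in Akr1b3 or in Adipoq. It was 3, with Vegfa added, under median-ratio rescaling, the deposited scores and voom, 4 with Akr1b3 as a covariate, 0 without ZT0, ZT8 or ZT16, 1 without ZT4, ZT12 or ZT24, and between 0 and 2 without a replicate number and between 0 and 3 without a single library. The causes were not tested. The other counts stayed within 1.5 times those reported, at 5 to 7 under NRF, 4 to 5 under DRF, 5 to 8 in the interaction, 13 to 20 at the same time of day and 9 to 17 in the feeding cycle. Without the 9 libraries high in Adipoq the feeding-cycle count was 9. Adm was lost for DRF ZT8 against NRF ZT20 (adjusted p = 0.0822) and for DRF ZT0 against NRF ZT12 (0.0860). Egln1 was lost for DRF ZT12 against NRF ZT0 (0.115), and Bnip3 for DRF ZT20 against NRF ZT8 (0.211). At ZT0 Egln1 was lost (0.0776) and Adm was gained (0.44 ± 0.13, adjusted p = 0.0172).

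Replicate numbers are shared between groups by label only. Same-numbered libraries of a time point had correlated deviations (r above 0.1) in 13 of 27 pairs, and 14 of 55 numbered libraries correlated best with their own number. With a replicate block, which in effect drops the unnumbered library, the members called were 5 under NRF, 5 under DRF, 6 in the interaction, 1 for the level over the day, 14 at the same time of day, 13 in the feeding cycle, 0 and 2 for the 12-h component under NRF and DRF and 0 between ZT24 and ZT0. The block ended the calls of Epas1 under NRF (adjusted p = 0.0611) and at ZT24 (0.0849) and of the Egln1 interaction (0.0786). Ankrd37 had 10 to 44 reads per library, the fewest of the members.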
